A study of Mus musculus with 18 samples.

Results

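Direct coding joins are V(D)J coding joins in which the sequence read from the bait end runs straight into the sequence of the partner end, with no inserted base and no base shared between the 2 alignments. They were taken as the junctions on the pMX-INV recombination substrate, on the coding-join strand and with a prey position of 2800 to 3813, in which the prey alignment started on the base of the read directly after the bait alignment, a gap of 0. The 12 coding-join libraries held 2048 such joins among 6903 coding joins and 30937 junctions. The remaining coding joins had inserted bases (2599) or microhomology, bases that fit both ends (2256).

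During V(D)J recombination the RAG nuclease cuts between a recombination signal and the neighbouring coding sequence and leaves the coding end sealed as a hairpin. The protein kinase DNA-PKcs, part of classical end joining, acts with the nuclease Artemis to open these hairpins, after which bases can be trimmed from the ends or added before ligation. CtIP promotes resection of broken ends. The position at which each alignment stops in a direct join therefore gives the apparent number of bases lost from each coding end. It lacks the ambiguity that a shared base brings, but an added base that matches a lost one would be read as kept.

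The libraries were made by high-throughput genome-wide translocation sequencing (HTGTS), which amplifies from a fixed primer beside a break (the bait) and reads the sequence joined to it (the prey). The cells were v-abl transformed B-cell lines of strain 129, immortalised by the viral Abl kinase, with a stably integrated copy of the substrate. The genotypes were CtIP A/A DNA-PKcs -/-, DNA-PKcs -/-, CtIP A/A and WT. Lines of the first 2 genotypes lack DNA-PKcs and those of the other 2 have it. Each genotype had 2 libraries of G2-arrested cells, treated with the Abl inhibitor STI571 (3 µM) for 24 h and then with the CDK1 inhibitor RO3306 (10 µM) for 48 h, and 1 library of G1-arrested cells, kept in STI571 (3 µM) for 48 or 72 h. The junction tables do not measure DNA-PKcs or CtIP, the labels do not say that replicates were separate cultures, and a genotype cannot be told apart from the cell line that carries it. P-values therefore measure the spread between these libraries, which may be technical.

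In the reads, the heptamers of both recombination signals, CACTGTG on the plus strand, ended directly before the coding sequence, and both coding sequences began with CAG. The first coding base was position 1943 of the substrate on the bait side and 2813 on the partner side. These are positions in a construct, not in the mouse genome, so no gene annotation applies. Bait reads came in from higher positions and stopped at the bait end, so a bait end of 1947 had lost 4 bp, and a prey position of 2821 had lost 8 bp from the partner end. An alignment that ran past the first coding base into heptamer sequence was counted as 0 bp deleted.

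The letters of the ends limit which joins can be read as direct. A pair of ends qualifies only if the next bait base differs from the first prey base and the base before the prey differs from the last bait base. This held for 19 of the 36 pairs (52.8%) with 0 to 5 bp deleted on each side, for 268 of 441 (60.8%) up to 20 bp and for 2085 of 3721 (56.0%) up to 60 bp. The join of both first coding bases was among those that cannot be read as direct. It appears as a microhomology join with bait end 1941, prey position 2811 and an overlap of 4 bp. All 12 libraries held that junction, in 1 to 4 lines each and 30 in all, and no direct join sat at the pair 1943 and 2813.

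The tables also hold few repeats. No line of the 30937 shared its prey position, strand, bait end and both read positions with another line of its library. A direct join has no insertion to set copies apart, and only 15 of the 2048 lines (0.732%) repeated a pair of ends within a library. Inserted joins repeated a pair of ends in 524 of 2599 lines (20.2%) and microhomology joins in 89 of 2256 (3.95%). Shares of direct joins are thus close to shares of distinct pairs of ends. With the gap also the same, repeats were 16 of the inserted lines (0.616%) and 53 of the microhomology lines (2.35%). Whether repeated joins were collapsed before deposit is not given in the sources used here. If they were, a pair joined many times would count as little more than a pair joined 1 time. The more joins a library holds, the more this would weigh on its most used pairs.

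CtIP A/A DNA-PKcs -/- cells gave 111 and 242 direct joins in the G2 libraries (replicates 1 and 2, in this order throughout) and 578 in the G1 library. DNA-PKcs -/- cells gave 241 and 161 in G2 and 377 in G1. CtIP A/A cells gave 40 and 45 in G2 and 61 in G1, and WT cells gave 46 and 26 in G2 and 120 in G1. The 6 libraries without DNA-PKcs held 1710 of the joins and the 6 with it 338, so values of the libraries with DNA-PKcs are less precise. A count of 0 was taken to allow up to 3 counts of the total, which is 11.5% in the smallest library and 0.519% in the largest. These limits and the intervals of single libraries (95%, Wilson) cover counting error only.

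Direct joins made up 33.6%, 36.0%, 39.3%, 37.5%, 33.3% and 35.8% of coding joins in the libraries without DNA-PKcs, against 15.2%, 15.6%, 14.5%, 16.4%, 15.7% and 14.4% in those with it, in the order above. The lowest library without DNA-PKcs had an interval of 29.3% to 37.7% and the highest library with it one of 12.5% to 21.1%. The gap chose the joins, so this contrast was not tested. Among joins without insertion the direct class made up 46.9% ± 4.95 (SD, n = 6) in libraries without DNA-PKcs and 47.1% ± 1.42 (SD, n = 6) in libraries with it, a difference within the spread between libraries.

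Without DNA-PKcs, the bait ends of direct joins lay deeper in the coding sequence. The median bait deletion was 19, 17 and 29 bp in CtIP A/A DNA-PKcs -/- libraries (G2, G2 and G1) and 31, 18 and 31 bp in DNA-PKcs -/- libraries, against 2.5, 3 and 4 bp in CtIP A/A and 2.5, 3 and 4 bp in WT. Every library without DNA-PKcs lay above every library with it. The libraries without DNA-PKcs also held more direct joins, 111 to 578 against 26 to 120. The part of this depth difference in the bait and partner deletion contrasts was not tested. As the mean over 4 strata, each 1 CtIP genotype in 1 arrest phase, the median was longer by 22.3 bp (95% interval 14.6 to 27.5; two-sided exact permutation test over libraries, p = 0.0139, the smallest the design allows, and adjusted p = 0.0139 over 6 measures). The loss was bounded by the assay, since the primer stood close to the break. The longest bait deletion was 148 bp, and the shortest bait alignment 31 bp.

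Bait deletions over 20 bp made up 48.6%, 38.4% and 60.6% of direct joins in CtIP A/A DNA-PKcs -/- libraries and 62.2%, 45.3% and 64.7% in DNA-PKcs -/- libraries. They made up 12.5%, 6.67% and 13.1% in CtIP A/A and 2.17%, 11.5% and 15.0% in WT libraries. The stratum-averaged difference was 44.5 points (31.9 to 51.6; adjusted p = 0.0139, exact permutation), and the groups did not overlap. The excess was spread over a wide range of lengths. Deletions of 21 to 60 bp accounted for 33.8% ± 3.00 of joins without DNA-PKcs and for 6.03% ± 3.67 with it, and deletions of 61 bp or more for 19.5% ± 11.2 without and 4.14% ± 2.65 with DNA-PKcs (SD, n = 6 each).

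**Figure D1:**
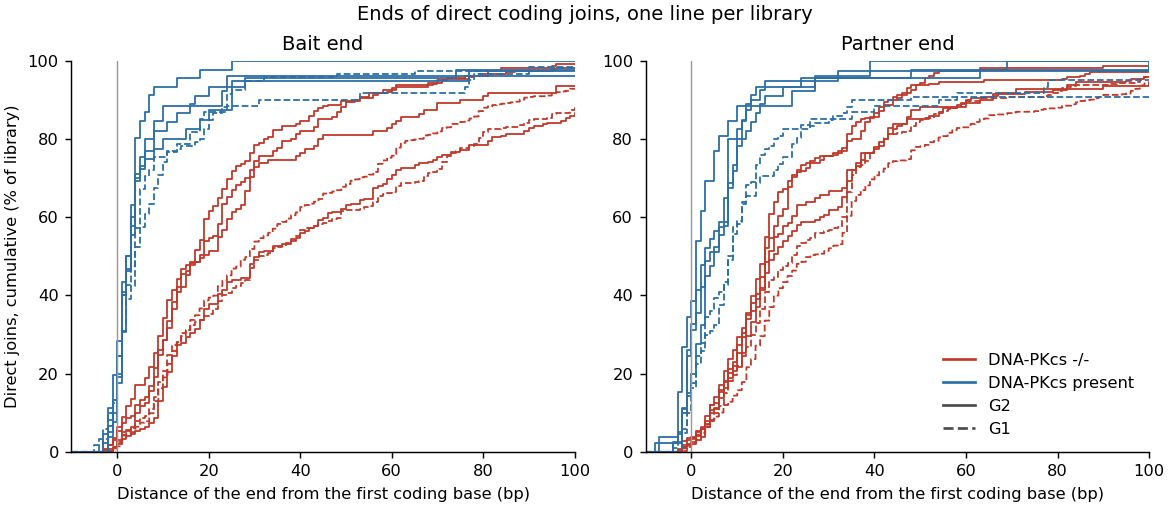
Cumulative share of direct joins (y axis, % of the library) by the distance of the bait end (left) and the partner end (right) from the first coding base (x axis, bp; 0 is the first coding base and negative values lie in the heptamer). Each line is 1 library, red without and blue with DNA-PKcs, solid for G2 and dashed for G1; at 20 bp every red line lies below every blue line in both panels.

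The partner ends showed a difference of the same direction. The median partner deletion was 17, 16 and 26 bp in CtIP A/A DNA-PKcs -/- libraries and 18, 16 and 22 bp in DNA-PKcs -/- libraries, against 5, 4 and 9 bp in CtIP A/A and 3, 1 and 8.5 bp in WT. The groups did not overlap, and the stratum-averaged median was longer by 14.4 bp (12.03 to 17.0; adjusted p = 0.0139, exact permutation). Losses over 20 bp at the partner end made up 42.3%, 32.6%, 56.6%, 46.1%, 37.9% and 52.5% of direct joins in the libraries without DNA-PKcs, against 5.00%, 6.67%, 24.6%, 6.52%, 11.5% and 17.5% in those with it. This share was higher by 32.9 points (26.4 to 37.5; adjusted p = 0.0139, exact permutation). Partner deletions of 6 to 20 bp differed less, at 44.1% ± 8.07 without and 36.5% ± 13.2 with DNA-PKcs (SD, n = 6 each). The direct joins are a part of all coding joins, for which longer deletions without DNA-PKcs were already known from these libraries, so these tests are no independent support for that difference.

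Mean partner deletions did not separate the groups. They differed by 5.70 bp (adjusted p = 0.583, exact permutation). A few joins with DNA-PKcs reached far into the partner side. Partner deletions over 200 bp made up 11 of the 120 direct joins in the WT G1 library (9.17%) and 3 of the 61 in the CtIP A/A G1 library (4.92%). They made up at most 1.80% in any library without DNA-PKcs. The most distant prey position, 3534, came from a library without DNA-PKcs (CtIP A/A DNA-PKcs -/- G2 replicate 1), a partner deletion of 721 bp. With DNA-PKcs the longest partner deletion was 674 bp, in WT G1. The nearest gap-0 junction beyond the window was at 3863.

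In sequencing run 1, made up of G2 replicate 1 of every genotype, the DNA-PKcs -/- minus DNA-PKcs-present difference was 22.5 bp for the bait median and 13.5 bp for the partner median. In run 2, which held all other libraries, it was 20.3 and 14.4 bp.

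Long losses on the 2 sides often met in the same join. Without DNA-PKcs, both deletions exceeded 20 bp in 33.0% ± 10.2 of direct joins (618 lines), the bait deletion alone in 20.3% ± 2.68, the partner deletion alone in 11.6% ± 2.84 and neither in 35.04% ± 9.16 (SD, n = 6). With DNA-PKcs, both exceeded 20 bp in 5.69% ± 3.39 (18 lines), the bait alone in 4.48% ± 4.35, the partner alone in 6.28% ± 5.91 and neither in 83.6% ± 9.27 (SD, n = 6). Across the joins of a library, bait and partner deletions had Spearman correlations of 0.587, 0.280, 0.474, 0.499, 0.362 and 0.511 in the libraries without DNA-PKcs. The correlations were 0.170, 0.275, 0.139, -0.106, 0.298 and -0.0173 in those with it. The joins of a library share their DNA sample and their depth, so these coefficients are a description, and those with DNA-PKcs rest on 26 to 120 joins.

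**Figure D2:**
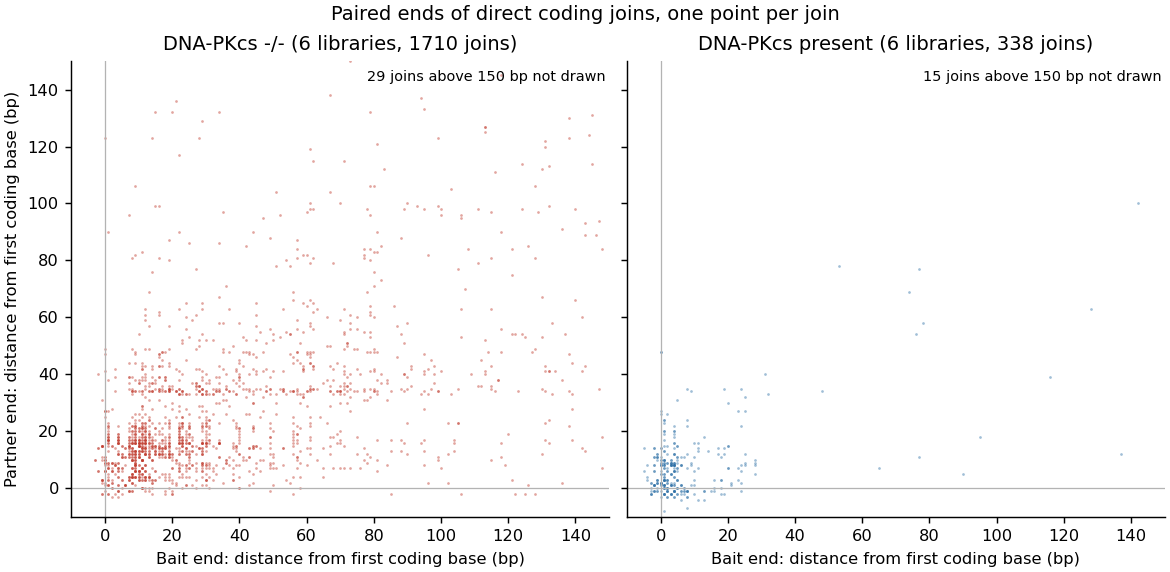
Bait end (x axis, bp from the first coding base) against partner end (y axis, bp from the first coding base) of each direct join, without DNA-PKcs (left, 1710 joins) and with it (right, 338 joins). Most joins with DNA-PKcs sit in the lower left corner while those without it spread along both axes; 29 and 15 joins with a partner end beyond 150 bp are not drawn.

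Near-intact direct joins, with no more than 5 bp lost on either side, made up larger shares in libraries with DNA-PKcs. Joins that enter a heptamer are among them, as such an end was counted as 0 bp deleted. This contrast therefore shares joins with that of prey starts in the heptamer, given below. Near-intact joins numbered 4, 7 and 11 in CtIP A/A DNA-PKcs -/- libraries and 5, 1 and 11 in DNA-PKcs -/- libraries, against 16, 19 and 16 in CtIP A/A and 21, 17 and 21 in WT. As shares of direct joins these were 3.60%, 2.89%, 1.90%, 2.07%, 0.621% and 2.92% without DNA-PKcs, against 40.0%, 42.2%, 26.2%, 45.7%, 65.4% and 17.5% with it. The groups did not overlap, and the stratum-averaged share was 32.7 points lower without DNA-PKcs (difference -32.7, interval -54.1 to -21.9; adjusted p = 0.0139, exact permutation). Within runs 1 and 2 the difference was -40.0 and -35.8 points. Because pairs of ends seldom repeated within a library, the number of near-intact joins is limited by the number of such pairs. The share can then fall as a library grows. The part of the depth difference between the groups in this contrast was not tested.

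Among the libraries with DNA-PKcs, the smaller ones had the larger near-intact shares. The share was 65.4% at 26 joins (interval 46.2% to 80.6%), between 40.0% and 45.7% at 40 to 46 joins, 26.2% at 61 and 17.5% at 120 (11.7% to 25.3%). The libraries with 61 and 120 joins were the G1 libraries and the other 4 were G2, so size and phase cannot be told apart there. The libraries without DNA-PKcs showed no such order, with 3.60% at 111 joins, 0.621% at 161, 2.07% at 241, 2.89% at 242, 2.92% at 377 and 1.90% at 578. Between the DNA-PKcs groups, the libraries closest in size were CtIP A/A DNA-PKcs -/- G2 replicate 1, with 4 of 111 joins near-intact, and WT G1, with 21 of 120, which also differ in CtIP genotype and arrest phase. Counting which of the 19 readable near-intact pairs occurred at all, a measure chosen after the data were seen, 2, 4, 6, 3, 0 and 7 were found in the libraries without DNA-PKcs, against 11, 9, 8, 10, 8 and 10 in those with it. The stratum-averaged difference was -4.88 pairs (-8.99 to -3.005; p = 0.0139 without adjustment, exact permutation), although the libraries without DNA-PKcs held more direct joins. All 19 pairs were seen over the libraries with DNA-PKcs and 14 over those without it. These pairs have both ends 0 to 5 bp into the coding sequence and leave out joins that enter a heptamer. The WT G2 libraries, in which no pair repeated, held 21 and 17 near-intact joins but 10 and 8 of these pairs.

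**Figure D3:**
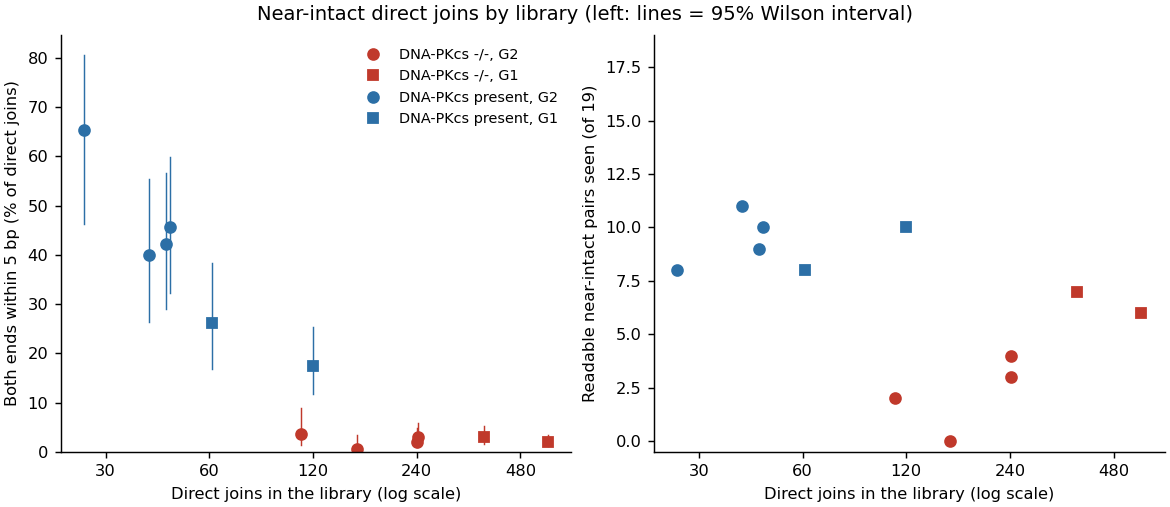
Left, share of direct joins with both ends within 5 bp of the first coding base (y axis, %; vertical lines are 95% Wilson intervals) against the number of direct joins in the library (x axis, log scale). Ends in the heptamer count as 0 bp deleted in the left panel and are left out in the right panel. Right, how many of the 19 near-intact pairs that can be read as direct were seen (y axis); the libraries without DNA-PKcs (red) saw 0 to 7 and those with it (blue) 8 to 11.

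Single positions followed the same division. The 6 bait ends with the highest mean share over the 12 libraries lay 1, 4, 0, 3, 2 and 8 bp into the coding sequence. Bait end 1944, with 1 bp lost, took 2.08% ± 0.575 of direct joins without DNA-PKcs and 15.3% ± 4.18 with it. Bait end 1947, with 4 bp lost, took 2.38% ± 1.20 without and 12.4% ± 3.28 with DNA-PKcs, and the untrimmed end 1943 took 1.70% ± 0.768 without and 9.64% ± 1.96 with DNA-PKcs (SD, n = 6 each). Ends 1946 and 1945 took 0.732% and 1.16% without DNA-PKcs, against 8.62% and 8.09% with it. End 1951, 8 bp in, took 3.24% ± 1.10 without and 3.67% ± 2.11 with DNA-PKcs, a difference within the SD of either group. All 6 ends occurred in all 12 libraries.

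The 6 leading prey positions were 2821, 2812, 2814, 2816, 2811 and 2829. Position 2821, with 8 bp lost, took 2.50% ± 0.827 without DNA-PKcs and 8.65% ± 3.94 with it. Position 2814, with 1 bp lost, took 1.26% ± 0.569 without and 8.20% ± 3.92 with DNA-PKcs, and position 2816, with 3 bp lost, 2.12% ± 0.787 without and 6.99% ± 3.04 with DNA-PKcs (SD, n = 6 each). Positions 2812 and 2811 lie 1 and 2 bp before the first coding base and took 0.822% ± 0.305 and 1.16% ± 0.845 without DNA-PKcs, against 9.08% ± 4.29 and 6.69% ± 2.99 with it. Position 2829, with 16 bp lost, ran the other way, at 5.61% ± 1.79 without and 1.06% ± 1.20 with DNA-PKcs. Positions were chosen by their shares and are described without a test.

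**Figure D4:**
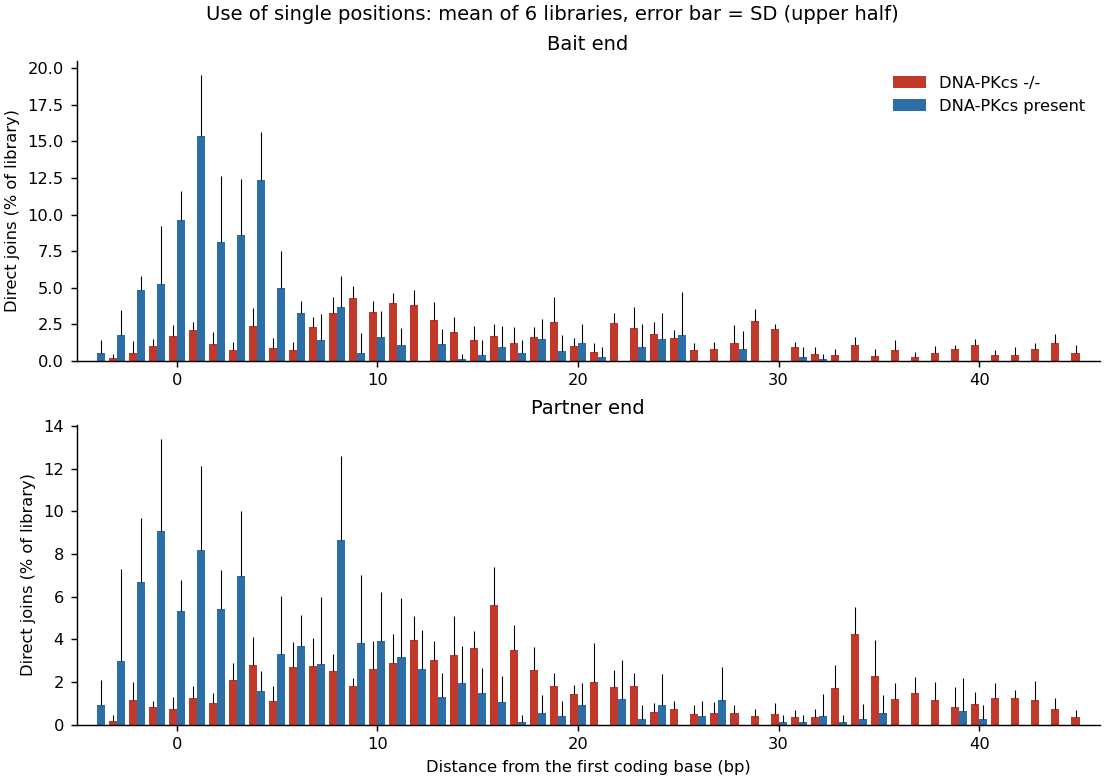
Mean share of direct joins (y axis, % of the library) at each bait end (top) and partner end (bottom) by distance from the first coding base (x axis, bp), without DNA-PKcs (red) and with it (blue); bars are means of 6 libraries and error lines 1 SD upwards. At the bait end the blue bars crowd between -2 and 8 bp. At the partner end they reach further, with 3.94% at 10 bp and 2.62% at 12 bp. The red bars spread out, with the highest red partner bar at 16 bp (5.61%).

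The partner sequence holds a run of 10 C bases at positions 2828 to 2837, 15 to 24 bp into the coding sequence. Prey positions within this run, a region picked after the values were seen, took 26.1%, 27.7%, 21.5%, 19.9%, 32.9% and 20.4% of direct joins in the libraries without DNA-PKcs. In the libraries with DNA-PKcs they took 5.00%, 8.89%, 14.8%, 0%, 3.85% and 9.17%, where 0 of 46 joins (WT G2 replicate 1) allows a share of up to 6.52% at 3 counts (upper end of the Wilson interval 7.71%). Partner deletions of 34 or 35 bp, also picked afterwards, took 3.11% to 10.6% in each library without DNA-PKcs and 0% to 3.33% with it. The first prey base was C in 50.2% ± 6.53 of direct joins without DNA-PKcs and in 29.8% ± 7.61 with it (SD, n = 6 each), while C made up 41.0% of the first 61 partner positions. These shares are descriptions, and the run of C was not set apart from other sequence at the same depth.

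Whole pairs of ends recurred between libraries. Of 1314 distinct pairs, 361 (27.5%) occurred in at least 2 libraries, and no pair occurred in more than 9. The pair with the highest mean share, bait end 1947 with prey position 2812, was found in 3 libraries without DNA-PKcs and in 6 with it. The pair 1944 and 2816 was found in 2 libraries without and 6 with DNA-PKcs, and the pair 1947 and 2821 in 0 without and 6 with it. Each of these 3 pairs contributed 1 line to each library with DNA-PKcs, or 2.20% ± 0.998 of direct joins (SD, n = 6). The other 7 of the 10 leading pairs were found in 0 to 3 libraries without DNA-PKcs and 4 or 5 with it, and their ends lay between -2 and 8 bp. Pairs were chosen by their mean share, in which 1 line weighs more in a small library, and are described without a test.

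The 3 pairs that led in the libraries without DNA-PKcs had lost more on both sides. Bait end 1954 with prey position 2823 (11 and 10 bp lost) and bait end 1953 with 2828 (10 and 15 bp) were each found in all 6 libraries without DNA-PKcs and in 0 with it. Bait end 1953 with 2829 (10 and 16 bp) was found in 6 without and 1 with it. These 3 pairs were chosen by their share in the libraries without DNA-PKcs, so their presence there is no separate result. Each took 0.465% to 0.534% of direct joins there on average. That is below the 2.50% to 11.5% that a count of 0 allows in a library with DNA-PKcs. Their absence there can therefore not be read as a difference. Over the libraries without DNA-PKcs, 301 of 1214 pairs (24.8%) recurred in at least 2 of them, and over those with it 72 of 203 (35.5%). These rates rest on 1710 and 338 joins and depend on depth and on how widely the ends spread. They were not corrected for either, so they cannot be compared between the groups.

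Some direct joins kept bases beyond the first coding base. The prey alignment began in the heptamer in 32 joins without DNA-PKcs and 61 with it, and the bait alignment ran into its heptamer in 23 without and 44 with it. On the partner side 44 of these 93 joins kept 1 such base and 35 kept 2, and on the bait side 31 of 67 kept 1 and 22 kept 2. Palindromic (P) nucleotides are bases copied from the opposite strand when a hairpin is opened off its tip. Next to a coding end that starts with CAG, the first 2 P nucleotides have the same letters as the adjoining heptamer bases, TG on the partner side, so retained heptamer and P nucleotides cannot be told apart there.

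Direct joins whose prey began before the first coding base made up 3.60%, 1.65%, 1.56%, 2.90%, 1.86% and 1.33% in the libraries without DNA-PKcs, against 15.0%, 24.4%, 9.84%, 26.1%, 34.6% and 14.2% in those with it. The groups did not overlap, and the stratum-averaged share differed by -16.5 points (-27.9 to -10.02; adjusted p = 0.0139, exact permutation). On the bait side the corresponding shares were 1.74% ± 1.23 without DNA-PKcs and 12.7% ± 4.00 with it (SD, n = 6 each). The part of the depth difference between the groups in these shares was not tested.

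The CtIP A/A libraries addressed whether the CtIP phosphorylation site alters these ends. Of the 6 measures, 0 passed the threshold against CtIP wild type and 0 had an unadjusted p under 0.05 (exact permutation, adjusted p from 0.458 to 0.778). Partner medians differed by 1.63 bp (interval -0.475 to 3.98) and the median bait deletion by -2.13 bp (-7.20 to 0.497). Partner deletions over 20 bp differed by 0.867 points (-9.14 to 5.51), bait deletions over 20 bp by -3.39 points (-13.5 to 4.49), near-intact joins by -1.20 points (-14.3 to 6.57) and prey starts in the heptamer by -3.62 points (-10.6 to 0.640). None of these CtIP differences was shown to depend on DNA-PKcs (exact permutation of the interaction, adjusted p of at least 0.333).

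Between arrest phases, partner deletions were shorter in G2. Only the G2 cells received RO3306, and the times in STI571 differed, so phase cannot be told apart from treatment. Within each genotype, both G2 libraries had a lower partner median than the G1 library (17 and 16 against 26 bp, 18 and 16 against 22 bp, 5 and 4 against 9 bp, and 3 and 1 against 8.5 bp, in the order above). The stratum-averaged difference, G2 minus G1, was -6.38 bp (-8.73 to -4.18; p = 0.0123, the smallest the design allows, adjusted p = 0.0370, exact permutation). Partner losses over 20 bp were less frequent in G2 by 14.2 points (difference -14.2, interval -21.7 to -6.27; adjusted p = 0.0370, exact permutation). Within run 2, the only run with both phases, the differences were -7.13 bp and -15.6 points.

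The other 4 measures did not pass the threshold between phases. The median bait deletion differed by -5 bp (-11.5 to 0.244), bait deletions over 20 bp by -9.91 points (-20.7 to -0.648), near-intact joins by 13.2 points (-0.173 to 28.1) and prey starts in the heptamer by 7.05 points (0.259 to 14.6), each with an adjusted p of 0.0741 (exact permutation). The G1 library of every genotype held more direct joins than both of its G2 libraries, and the part of this depth difference in the phase results was not tested. With 1 G1 library per genotype, both partner calls were lost (adjusted p up to 0.111, exact permutation) when any of 8 libraries was left out. These were the 4 G1 libraries, both G2 libraries of CtIP A/A DNA-PKcs -/- and both G2 libraries of WT. The differences themselves then stayed between -7 and -5.33 bp and between -16.1 and -12.6 points, and each unadjusted p was the smallest that the fewer arrangements allow (0.0185 without a G2 library and 0.0370 without a G1 library, exact permutation). No phase difference was shown to depend on DNA-PKcs (adjusted p of at least 0.370, exact permutation of the interaction).

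Direct joins were then set against the inserted joins of the same library. The gap rule that sets the classes also limits which pairs of ends can be direct. The part of this limit in the class differences given here and below was not tested. The median partner deletion was longer in direct joins in 11 of 12 libraries, by 5.54 bp on average (adjusted p = 0.00879, exact paired permutation over libraries, 6 comparisons). Without DNA-PKcs it averaged 19.2 bp in direct and 10.7 bp in inserted joins, and with DNA-PKcs 5.08 bp in direct and 2.50 bp in inserted joins. The bait ends split by genotype. Without DNA-PKcs the median bait deletion was longer in direct than in inserted joins in 6 of 6 libraries (24.2 against 11.2 bp on average), and with DNA-PKcs it was shorter in 6 of 6 (3.17 against 4.83 bp). Over all 12 libraries the bait difference was 5.67 bp and did not pass the threshold (adjusted p = 0.0923, exact paired permutation). With each pair of ends counted 1 time per library, which takes away the repeats that are frequent among inserted joins, the partner difference was 3.92 bp (adjusted p = 0.0381) and the bait difference 4.63 bp (adjusted p = 0.124, exact paired permutation).

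The DNA-PKcs difference itself was larger in direct than in inserted joins. At the bait end it was 22.3 bp in direct and 6.19 bp in inserted joins, a difference of 16.1 bp (6.51 to 20.96; adjusted p = 0.0185 over 4 tests, exact permutation). At the partner end it was 14.4 bp in direct and 8.25 bp in inserted joins, a difference of 6.13 bp (2.02 to 8.98; adjusted p = 0.0185, exact permutation). Near-intact joins made up 2.34% of direct and 13.4% of inserted joins without DNA-PKcs, lower among direct joins in 6 of 6 libraries, and 39.5% of direct and 34.7% of inserted joins with DNA-PKcs. Over all 12 libraries this share differed by -3.16 points (adjusted p = 0.405, exact paired permutation). Only 19 of the 36 pairs with 0 to 5 bp deleted on each side can be read as direct, which bears on these shares.

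Against microhomology joins, direct joins had shorter partner deletions, by 3.29 bp on average (difference -3.29; lower in 10 of 12 libraries, equal in 1; adjusted p = 0.0117, exact paired permutation). Without DNA-PKcs the partner median averaged 19.2 bp in direct and 24.0 bp in microhomology joins, and the bait median 24.2 bp in direct and 32.8 bp in microhomology joins, both shorter in direct joins in 6 of 6 libraries. With DNA-PKcs the bait medians were 3.17 bp in direct and 2.92 bp in microhomology joins. The bait difference over all 12 libraries was -4.21 bp (adjusted p = 0.0547, exact paired permutation). The DNA-PKcs difference at the bait end was smaller in direct joins than in microhomology joins, 22.3 against 32.6 bp (difference -10.3, interval -14.0 to -3.75; adjusted p = 0.0185, exact permutation). At the partner end it was 14.4 against 18.4 bp (difference -4, interval -7.33 to 1.99; adjusted p = 0.139, exact permutation). These 3 called differences of the DNA-PKcs effect between classes had an adjusted p of 0.0556 (exact permutation) when WT G2 replicate 2, the library with 26 direct joins, was left out. With joins that enter a heptamer left out, their adjusted p was 0.0556 for both differences from inserted joins and 0.111 for that from microhomology joins, and with means in place of medians it was 0.986 (partner), 0.0556 (bait) and 0.370 (exact permutation).

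**Figure D5:**
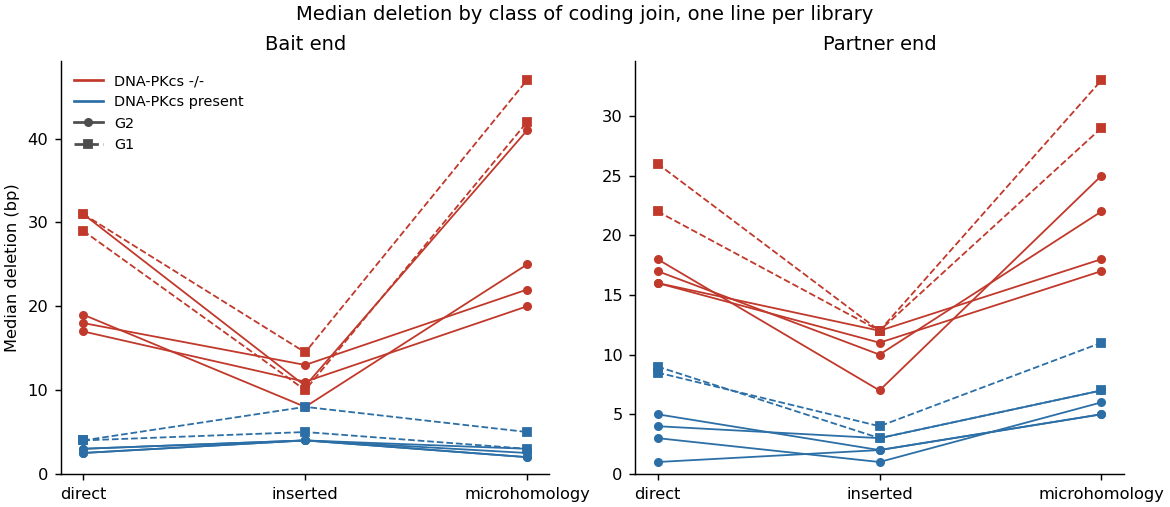
Median deletion of the bait end (left) and the partner end (right) (y axis, bp) in direct, inserted and microhomology coding joins of each library (x axis), red without and blue with DNA-PKcs, circles and solid lines for G2, squares and dashed lines for G1. In the 6 red libraries the inserted joins have the lowest and the microhomology joins the highest median at both ends.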

How the data were processed

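Per the file headers, each deposited table lists 1 junction per line with base positions of both alignments on the substrate and on the read (no normalization), and a count of uncut bases past the break site, which was 0 in every direct join. Alignment was to mm10 plus the substrate, per the labels' protocols, and the submitters' processing notes name Bowtie2. The junction caller, its handling of duplicates and versions are not given in the sources used here. Libraries held 289 to 7068 junctions. The 6 I-PpoI samples were not analysed here.

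Borders were read from the heptamers in the consensus of the reads (214 positions, lowest agreement 95.7%). The gap is the read start of the prey minus the read end of the bait minus 1. Calculations were run in Python 3.11.15 (numpy 2.4.6, pandas 2.3.3, scipy 1.17.1, matplotlib 3.10.9). The DNA-PKcs and CtIP effects were averaged over 4 strata and tested over 144 arrangements of the library labels, the G2 effect over 81, and classes over 4096 sign changes, all exact and two-sided, with Benjamini-Hochberg adjustment and a threshold of 0.05. Intervals come from inverting these tests. Named were the 6 bait ends, 6 prey positions and 10 pairs with the highest mean share over 12 libraries, the 3 leading pairs of each DNA-PKcs group and the pair at both first coding bases. The members, measures and rules were chosen with earlier results of these data known. G2 replicate numbers matched the 2 sequencing runs read from the read names. Deviations of same-numbered libraries correlated between all genotype pairs (0.154 to 0.532), which was not tested. The numbers were taken as pairing the samples only in the replicate block, an alternative given in the closing section. The tests above exchanged labels across replicate numbers. Alternatives covered the heptamer, repeated pairs, filters, thresholds, the window, the mean, the runs, the replicate block and each library left out.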

Additional observations from a re-analysis of the deposited data

How the results depend on the processing

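The 6 DNA-PKcs differences kept their direction and call without each library in turn (adjusted p at most 0.0278, exact permutation) and under all other settings that allow a test, except that the mean partner deletion differed by 5.70 bp (adjusted p = 0.583), with 11 of the 120 WT G1 joins beyond 200 bp. With the replicate block (labels exchanged only between libraries of the same phase and number), the DNA-PKcs differences ran from 14.1 bp for the partner median to 43.2 points for long bait deletions, with p = 0.0313 for each of the 6 (exact permutation). No call changed, and among uncalled CtIP differences partner deletions over 20 bp became -0.701 points and near-intact pairs seen, a measure added after the data were seen, 0.333. Within run 1, where 4 arrangements allow no test, long partner deletions differed by 38.4 points and near-intact joins by -40.0 points between DNA-PKcs groups, and the CtIP difference in partner median was 0.500 bp. With joins that enter a heptamer left out, prey starts in the heptamer cannot be computed and direct joins made up 39.3% and 17.0% of coding joins without and with DNA-PKcs. Direct and inserted joins then differed by 2.85 points in near-intact joins, direct and microhomology joins by -8.29 bp in bait median (adjusted p = 0.00293, exact permutation), and the DNA-PKcs difference was larger in direct than in inserted joins by 7.38 bp (partner) and 12.9 bp (bait, adjusted p = 0.0556 each) and smaller than in microhomology joins by 6.19 bp (difference -6.19 bp, bait, adjusted p = 0.111). With each pair counted 1 time, direct joins made up 18.5% with DNA-PKcs, the G2 difference in prey starts in the heptamer was 7.63 points (adjusted p = 0.0494), direct and inserted joins differed by 1.46 points in near-intact joins, and direct and microhomology joins by -5 bp in bait median (adjusted p = 0.0264, exact permutation). With means, the CtIP difference at the partner end was -5.86 bp, direct joins differed in bait deletion by 7.57 bp from inserted (adjusted p = 0.0234, exact permutation) and by -4.73 bp from microhomology joins (adjusted p = 0.00146), and the DNA-PKcs difference in direct joins minus that in inserted joins was 0.195 bp (partner, adjusted p = 0.986) and 15.4 bp (bait, 0.0556), and minus that in microhomology joins -2.72 bp (bait, 0.370). The CtIP difference was 1.16 points for near-intact joins without short prey alignments and 0.371 points for bait deletions over 10 bp. With a window of 200 bp the G2 difference in bait median was -5.38 bp (adjusted p = 0.0370, exact permutation). The causes of these changes were not tested.

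Without each library in turn, the called G2 differences ran from -7 to -5.33 bp (partner median) and from -16.1 to -12.6 points (partner over 20 bp). The uncalled ones ran from -6.63 to -3 bp (bait median, called without either DNA-PKcs -/- G2 library), from -12.0 to -7.54 points (bait over 20 bp, called without DNA-PKcs -/- G2 replicate 2) and from 4.00 to 9.05 points (prey starts in the heptamer, called without that library or either CtIP A/A G2 library). CtIP differences ran from -1.21 to 2.08 points (partner over 20 bp), from -4.51 to 1.27 points (near-intact) and from -0.500 to 0.500 near-intact pairs. Direct minus microhomology joins ran from -4.68 to -3.14 bp in bait median (called without CtIP A/A G1 or WT G2 replicate 2) and from -0.499 to 1.71 points in near-intact joins. The DNA-PKcs difference in direct joins minus that in inserted joins ran from 5.25 to 7 bp (partner) and 14.1 to 18.0 bp (bait). Minus that in microhomology joins it ran from -4.63 to -2.33 bp (partner, called without DNA-PKcs -/- G2 replicate 2) and -11.1 to -8.75 bp (bait). Depth limits the libraries with DNA-PKcs most, where 26 to 120 direct joins give shares with wide intervals.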
